A study of Saccharomyces cerevisiae with 46 samples.

Results

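The cytosolic ribosomal protein genes of the large (60S) ribosomal subunit of Saccharomyces cerevisiae were followed in RNA-seq libraries of cells that lack Spt4 or were depleted of Spt4 or Spt5. They were chosen by symbol alone, as every RPL gene from RPL1A to RPL43B and the acidic P genes RPP0, RPP1A, RPP1B, RPP2A and RPP2B. That gave 81 genes, of 5572 listed in the largest table. All 81 were listed and tested in the table of spt4Δ and WT cells, and 79 in each anchor-away table, where RPL15B and RPL39 were not analysed here.

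The 60S subunit holds the peptidyl transferase centre, where peptide bonds form, and the exit tunnel, through which the nascent chain leaves. Its proteins come from genes that are among the most strongly transcribed in growing yeast, mostly in pairs of near-identical A and B paralogs left by a whole-genome duplication. Rap1, Fhl1, Ifh1 and Sfp1 drive most of these promoters with nutrient and TORC1 signals, and many of the genes carry an intron, unlike most yeast genes. Spt4 and Spt5 form the conserved elongation factor DSIF, which travels with RNA polymerase II.

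The groups were spt4Δ cells and WT cells (2 libraries each), both BY4741 with the polymerase subunit Rpb3 carrying a 3xFLAG tag, and 3 groups of anchor-away strains (2 libraries each). In anchor-away, rapamycin bridges a protein fused to FRB to a ribosomal protein fused to FKBP12, which takes it out of the nucleus. Spt4-AA cells carried SPT4-FRB-eGFP and were harvested 140 min after rapamycin, and Spt5-AA cells carried SPT5-FRB-eGFP and were harvested 180 min after it. The DMSO group held 1 library of each of these strains, at 120 min of DMSO, so that treatment and time cannot be told apart. All anchor-away cells, those in DMSO included, carried tor1-1, fpr1Δ, Rpb3-3xFLAG and RPL13-2xFKBP12. The anchor is thus itself a 60S protein, from a gene whose paralog letter the labels do not give. The study names repeats as separate experiments done at different times. The p-values rest on the spread between such repeats in the spt4Δ, WT, Spt4-AA and Spt5-AA groups. In DMSO the spread is that between 1 library of each strain, not between repeats of a strain.

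Between 798455 and 6814227 reads per library lay on the listed genes. Replicate 1 of spt4Δ stood apart on the deposited scale, with a sum of 12538512 normalized counts against 3761984 in replicate 2 and 3861287 and 3943991 in WT cells. Each library of every table was rescaled by its median ratio to its own table, because members were read relative to the median gene. Every value below is such a rescaled normalized count, comparable within a table only. Before that step the median log2 fold change of all genes was 0.83 in spt4Δ over WT, -0.28 in Spt4-AA over DMSO and -1.84 in Spt5-AA over DMSO. The labels held at SPT4, with 0 and 2.82 in spt4Δ against 450 and 479 in WT cells, and FPR1 was between 6.86 and 15.1 in the table of Spt4-AA and DMSO. Among markers of mating type, all 4 of the MATa list were present in each table (STE2, for example, at 2625 and 1873 in spt4Δ against 1634 and 1975 in WT cells). Of the MATα list, MF(ALPHA)1 had 0.851 and 0.705 in spt4Δ and 0 in both WT libraries. MF(ALPHA)2 had 3.40 and 6.34 in spt4Δ against 0.848 and 0 in WT cells, and STE3 was between 14.4 and 19.6 in these 4 libraries.

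Many members have a near-identical copy, and how reads that fit both copies were counted is not given in the sources used here. Coding sequences of the 35 A and B pairs were between 69.21% (RPP1) and 99.39% (RPL1) identical, and in 8 pairs over 40% of all stretches of 50 bases in the A gene occurred again in another gene. Such stretches made up 81% of RPL1A, 80.6% of RPL35A and 69% of RPL41A. RPL41A and RPL41B, which encode the smallest ribosomal protein, are shown as an example. Their coding sequences (R64 assembly, chrIV:130407-130484 and chrIV:221724-221801, both minus strand) differ at a single base, C9T from A to B counting from the start codon, printed in capitals:
RPL41A: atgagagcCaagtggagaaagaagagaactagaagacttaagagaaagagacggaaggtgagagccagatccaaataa
RPL41B: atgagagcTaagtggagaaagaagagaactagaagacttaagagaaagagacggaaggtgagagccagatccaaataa
Only 1 base thus separates their coding reads, and values of the pair are uncertain wherever reads were split between them.

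In WT cells the 60S genes were among the most abundant transcripts. Per kb of coding sequence, the median member in the WT libraries lay at the 97.5th percentile of 5130 genes. The range within the group was wide. RPL41A was highest, at 396234 and 251201 rescaled counts per kb in spt4Δ against 300610 and 394303 in WT cells, and RPL15B, the minor copy of its pair, was lowest, at 116 and 203 in spt4Δ against 121 and 112 in WT cells. In the anchor-away tables RPL4B was lowest in every library, and RPL41A was highest in the DMSO and Spt4-AA libraries. In Spt5-AA RPL41B was highest, at 193680 and 149880 per kb, close to RPL41A at 192196 and 144997. RPL4B had 62.1 and 75.8 per kb in Spt4-AA against 94.5 and 137 in DMSO. In spt4Δ and WT cells the groups of RPL41A and of RPL15B overlapped. The rank of RPL41A and RPL41B per kb rests on a coding sequence of 78 bases, and the annotation used for counting is not given. Without division by length, RPL41A had 23448 and 30756 counts in WT cells, below RPL10 at 59210 and 65964.

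In spt4Δ cells the 60S genes lay below the median gene as a group, but no member passed the test on its own. Their median log2 fold change was -0.27, beside 0.00 over all 5283 genes tested, with 77 of 81 members below 0. On the deposited scale, where all genes moved up by 0.83, the members' median was 0.57. By limma with Benjamini-Hochberg adjustment 0 of 81 were called, beside 1.02% of all genes called in either direction, 0.36% lower and 0.663% higher. At an unadjusted p under 0.05 by limma, 9 of 81 members passed, beside 563 of all 5283 genes, a share close to that of the members. By edgeR 0 members were called and by DESeq2 1 (RPL8A), beside 0.871% and 2.04% of all genes. Calls depended on the libraries and were gained when either spt4Δ library was left out, among members and among all genes. No count is given for such fits, where the lone library of a group is assumed to vary like the rest. Against the mean of the WT libraries, the members' median was -0.33 in spt4Δ replicate 1 and -0.31 in replicate 2. In 41 of 81 members both spt4Δ libraries lay below both WT libraries, beside 20.2% of all genes, and in 0 did both lie above, beside 20.3%. In bulk samples such as these, less of a transcript per cell and fewer cells that hold it cannot be told apart.

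RPL8A, whose protein is needed early in 60S assembly, had the lowest fold change of all members in spt4Δ. It had 1038 and 1460 counts in spt4Δ against 2560 and 2762 in WT cells (log2 fold change -1.11, standard error 0.254, limma adjusted p = 0.0796). Its paralog RPL8B had 1073 and 1542 in spt4Δ against 1806 and 1607 in WT cells, at -0.41. RPL22B, the minor copy of a pair dispensable for growth, had 318 and 287 in spt4Δ against 548 and 543 in WT cells (-0.85, limma adjusted p = 0.113). In both RPL8A and RPL22B each spt4Δ library lay well below each WT library, but neither gene passed the threshold. RPL7A, RPL6B and RPL34A followed, at -0.69, -0.68 and -0.68. At the other end stood RPL15B at 0.39, with 71.5 and 125 in spt4Δ against 74.6 and 69.0 in WT cells, followed by RPL41B (0.07), RPP1A (0.04), RPL17B (0.02) and RPL18B (0.00). In each of these 5 genes the groups overlapped.

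**Figure D1:**
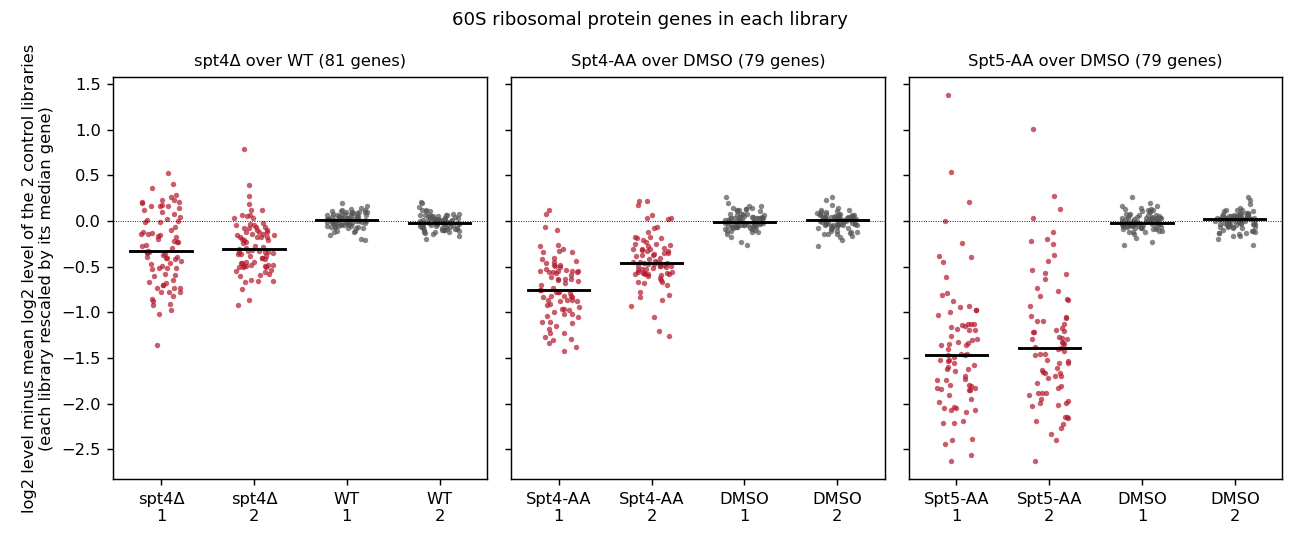
Log2 level of each 60S ribosomal protein gene in each library, minus its mean log2 level in the 2 control libraries of the table, after rescaling by the median gene. Each point is a gene and the black line is the median, at -0.33 and -0.31 in the 2 spt4Δ libraries, -0.76 and -0.46 in the Spt4-AA libraries and -1.47 and -1.38 in the Spt5-AA libraries, while on the deposited scale the members' median in spt4Δ over WT is 0.57.

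After depletion of Spt4, some members passed the test and all were below the median gene. In Spt4-AA all 79 members tested lay below the median gene, with a median log2 fold change of -0.55 beside 0.01 over all 4685 genes. By limma 15 of 79 fell and 0 rose, beside 8.99% of all genes called, 4.25% lower and 4.74% higher. On the deposited scaling 63 were called, all lower, beside 21.8% of all genes called, 142 of these genes higher. DESeq2 called 29 members, beside 9.99% of all genes. The count also moved with the libraries. Replicate 1 lay further down than replicate 2, with medians of -0.76 and -0.46. More members were called when either Spt4-AA library was left out, and the members lost their calls when either DMSO library was. Calls over all genes moved the same ways. Without the DMSO library of the Spt5-FRB strain, which leaves the 1 strain alone, the members' median was -0.595. In 68 of 79 members both Spt4-AA libraries lay below both DMSO libraries, beside 28.1% of all genes, and in 0 did both lie above, beside 28.2%.

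RPL8A was again the lowest member. It had 457 and 531 counts in Spt4-AA against 1130 and 1337 in DMSO (log2 fold change -1.32, standard error 0.167, limma adjusted p = 0.00767). RPL27B had 846 and 852 in Spt4-AA against 1804 and 1716 in DMSO (-1.05, limma adjusted p = 0.00961). RPL22B had 92.1 and 65.4 in Spt4-AA against 153 and 163 in DMSO (-1.02, limma adjusted p = 0.0314), from 84 to 151 reads per library. RPL1B, a gene of the mobile L1 stalk that guides spent tRNA from the ribosome, had 828 and 1133 in Spt4-AA against 1901 and 1979 in DMSO (-1.001, limma adjusted p = 0.0234). In these 4 genes the libraries did not overlap. The other copy of the pair, RPL1A, was at -0.61 and was not called. The split of reads within this pair is uncertain, since 81% of the 50-base stretches of RPL1A are shared. The same limit holds for RPL35A, at 80.6%. The others that fell were RPP2B, RPL29, RPL26A, RPL2A, RPL28, RPL17A, RPL24B, RPP1A, RPP0, RPL6B and RPL35A, between -0.98 and -0.61. Of these, RPL2A encodes a protein near the peptidyl transferase centre, RPL28 the protein in which mutations give resistance to cycloheximide, RPL17A and RPL35A proteins at the exit tunnel, and RPL24B a bridge to the small subunit that joins late in assembly. The members nearest to the median gene were RPL17B at -0.06, RPL41B at -0.06, RPL7B at -0.11, RPL21B at -0.21 and RPL41A at -0.22, and none of these passed the test.

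In cells depleted of Spt5 nearly the whole group was lower relative to the median gene than in DMSO. In Spt5-AA 71 of 79 members fell and 1 rose, beside 54.1% of all 4673 genes called, 28.2% lower and 25.9% higher, and the members' median log2 fold change was -1.47 beside 0.00 over all genes. Against the mean of the DMSO libraries, the members' median was -1.47 in Spt5-AA replicate 1 and -1.38 in replicate 2. Within the Spt5-FRB strain alone, without the DMSO library of the other strain, the members' median was -1.48. In 74 of 79 members both Spt5-AA libraries lay below both DMSO libraries, beside 38.9% of all genes, and in 2 both lay above, beside 37.9%. On the deposited scale, where the median gene was at -1.84, all 79 members fell, at a median of -3.33. Of all 4673 genes, 93.1% were called on that scale, with 111 genes higher.

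The 5 lowest members in Spt5-AA lay between -2.41 and -2.30. RPL23B, whose protein sits at the subunit interface, had 2781 and 2056 counts in Spt5-AA against 12704 and 12732 in DMSO (log2 fold change -2.41, standard error 0.172, limma adjusted p = 2.05e-08). RPL4B, a gene of a tunnel-wall protein, had 11.9 and 16.5 in Spt5-AA against 65.4 and 95.1 in DMSO (-2.41, limma adjusted p = 4.32e-06), from as few as 7 reads in a library. RPL20A had 114 and 123 in Spt5-AA against 583 and 615 in DMSO (-2.33, limma adjusted p = 3.11e-09). Groups were far apart in each, and the standard error was largest in RPL4B, the least covered. RPL42B, of a protein at the exit site for tRNA, had 735 and 646 in Spt5-AA against 3131 and 3688 in DMSO (-2.30, limma adjusted p = 4.53e-09). RPL26A had 112 and 138 in Spt5-AA against 611 and 620 in DMSO (-2.30, limma adjusted p = 6.27e-09).

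The members that did not fall formed a small set. RPL41B rose, with 15107 and 11691 counts in Spt5-AA against 5650 and 6000 in DMSO (log2 fold change 1.19, standard error 0.178, limma adjusted p = 4.67e-05). RPL41A had 14991 and 11310 in Spt5-AA against 9718 and 10906 in DMSO (0.34, limma adjusted p = 0.148), with no overlap but under the threshold. On the deposited scale both were lower in Spt5-AA, at -0.67 for RPL41B and -1.52 for RPL41A, where the median gene was at -1.84. RPL10, whose protein joins late, in the cytoplasm, had 26009 and 18905 in Spt5-AA against 21667 and 23222 in DMSO (-0.02). RPL9B (0.02) and RPL7B (0.02) also overlapped between the groups, and the remaining 3 without a call were RPL8A (-0.30), RPL43A (-0.30) and RPL13A (-0.37). RPL7A and RPL7B each hold a small nucleolar RNA, SNR39 and SNR59, in an intron on the same strand, and whether its reads were counted with the gene is not given in the sources used here. RPL8A, the lowest member in spt4Δ and Spt4-AA, had 594 and 684 in Spt5-AA against 718 and 854 in DMSO (limma adjusted p = 0.0889).

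**Figure D2:**
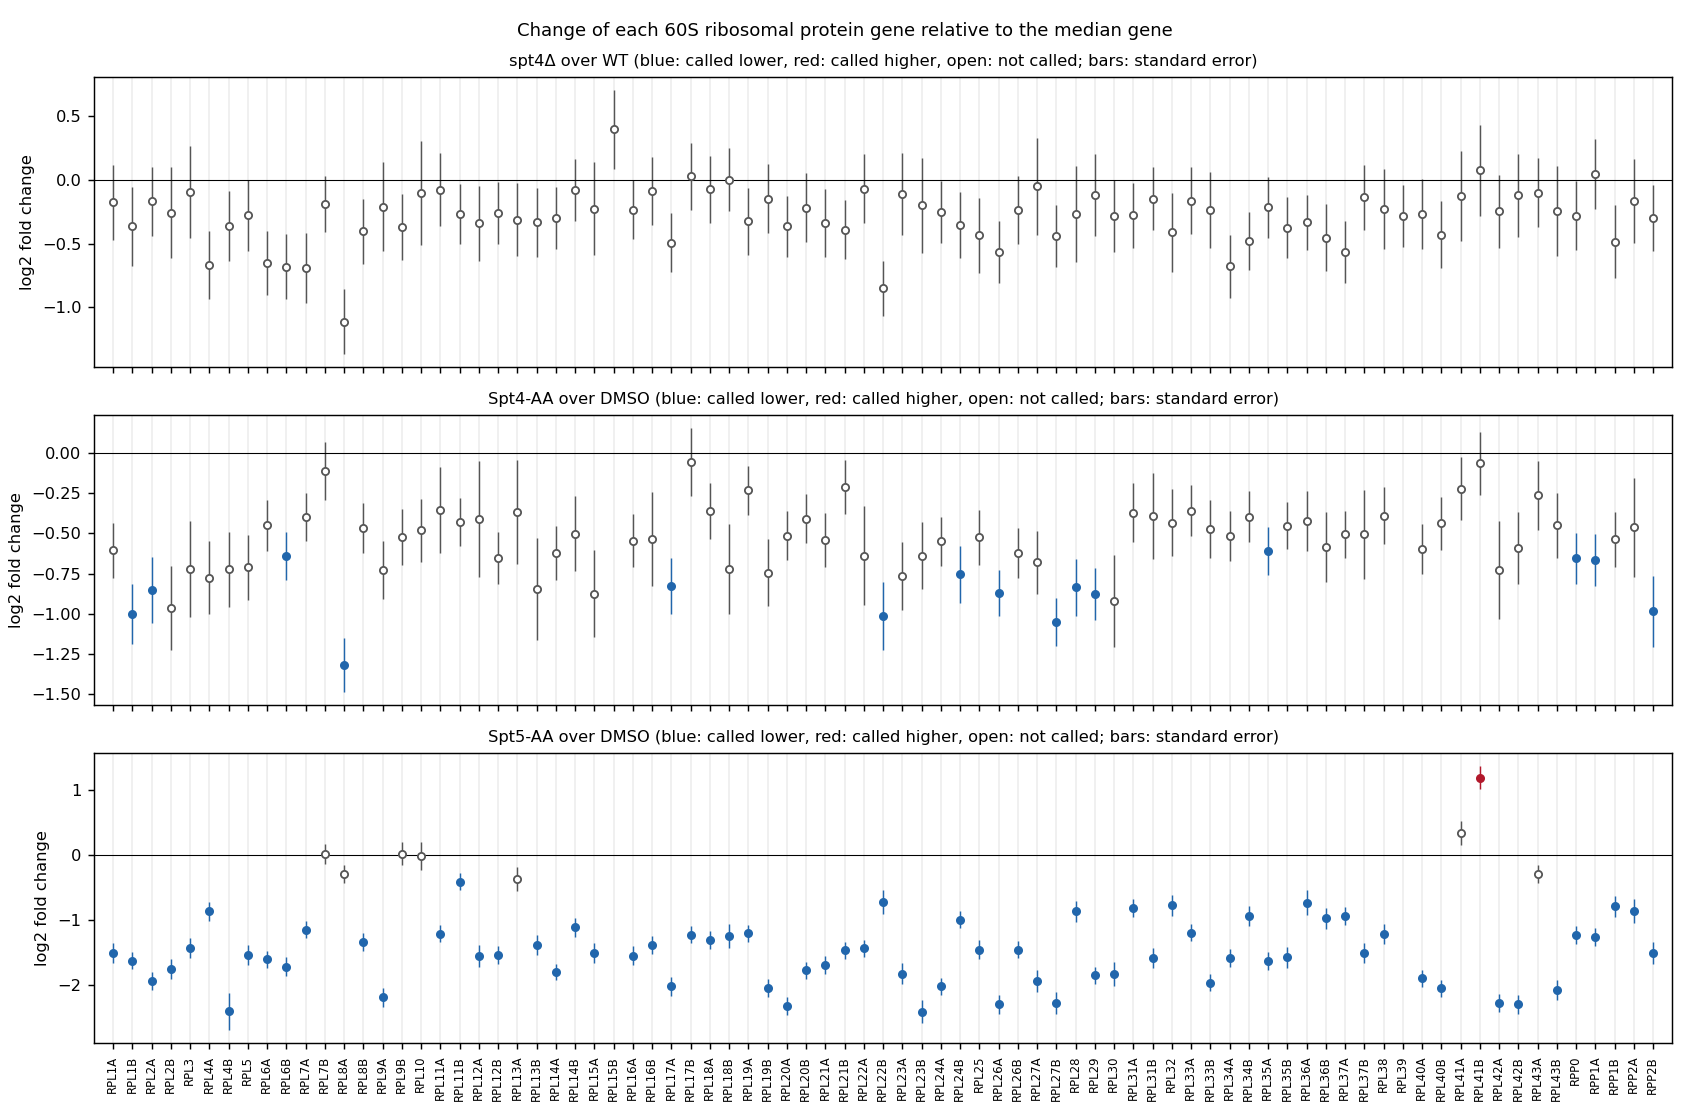
Log2 fold change of every 60S ribosomal protein gene relative to the median gene, one panel per comparison, with bars of 1 standard error (the 2 lower panels share their DMSO libraries). Filled points passed the test: none in spt4Δ over WT, 15 lower in Spt4-AA over DMSO, and 71 lower and 1 higher (RPL41B) in Spt5-AA over DMSO, while on the deposited scale the spt4Δ median is 0.57 and RPL41B is at -0.67 in Spt5-AA.

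Reads on the group were concentrated on fewer genes in Spt5-AA. The 79 members listed in every table took 7.89% and 7.33% of all reads in the Spt5-AA libraries against 13.34% and 13.28% in DMSO (95% Wilson interval of the first library 7.83% to 7.95%, counting error only). They took 9.57% and 10.01% in Spt4-AA against the same DMSO values, and 11.9% and 10.98% in spt4Δ against 12.6% and 12.98% in WT cells. In no comparison did these shares overlap, and with 2 libraries against 2 the exact permutation test (two-sided) gave p = 0.333, the smallest it allows. RPL10, RPL41A and RPL41B, chosen after their values were seen, held 52.4% and 45.6% of the 60S reads in Spt5-AA against 20.0% and 21.1% in DMSO. They held 27.2% and 21.6% in Spt4-AA, and 18.6% and 14.3% in spt4Δ against 14.4% and 16.2% in WT cells. The other members together took 3.76% and 3.98% of all reads in Spt5-AA against 10.7% and 10.5% in DMSO. It took 3 and 4 genes to reach 50% of the 60S reads in the Spt5-AA libraries, against 9 in each DMSO library.

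**Figure D3:**
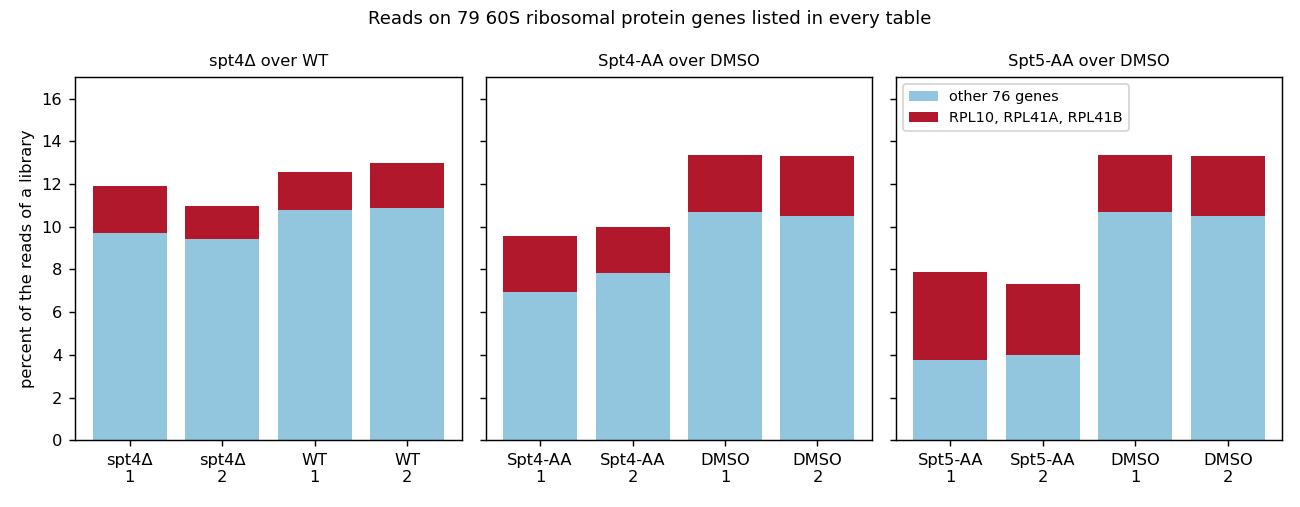
Percent of the reads of each library on 79 60S ribosomal protein genes, with RPL10, RPL41A and RPL41B (red) stacked on the other 76 (blue). The whole bar reaches 7.89% and 7.33% in Spt5-AA against 13.34% and 13.28% in DMSO, and the red part is 4.13% and 3.34% in Spt5-AA against 2.67% and 2.80% in DMSO.

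The P stalk is the lateral arm of the 60S subunit. Its base protein P0 carries dimers of the acidic proteins P1 and P2, and it recruits the translation factors that hydrolyse GTP. All 5 genes end in nearly the same coding sequence, for the acidic tail that binds those factors. The last 42 bases with the stop codon are printed here (R64), with capitals at the 35 positions that all 5 share:
RPP0 (chrXII:806784-806825, plus): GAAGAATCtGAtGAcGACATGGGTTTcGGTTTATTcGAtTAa
RPP1A (chrIV:309802-309843, minus): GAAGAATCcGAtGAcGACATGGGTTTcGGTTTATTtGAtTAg
RPP1B (chrIV:230486-230527, plus): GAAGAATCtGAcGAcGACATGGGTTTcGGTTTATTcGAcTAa
RPP2A (chrXV:254576-254617, plus): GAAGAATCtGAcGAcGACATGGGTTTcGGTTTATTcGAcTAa
RPP2B (chrIV:1239783-1239824, plus): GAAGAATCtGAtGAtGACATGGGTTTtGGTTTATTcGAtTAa
Upstream of the tail the genes diverge, with coding identity of 69.21% between RPP1A and RPP1B and 73.57% between RPP2A and RPP2B, and no shared stretch of 50 bases. Reads on the P genes are therefore less open to mixing between the copies of a pair than those on most pairs. Over the 42 bases printed, RPP1B and RPP2A are the same, so reads that lie wholly there fit both.

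Of the P genes, 0 of 5 were called in spt4Δ, 3 fell in Spt4-AA and 5 fell in Spt5-AA, at medians of -0.28, -0.65 and -1.24. Of all genes, 0.36% were called lower in spt4Δ, 4.25% in Spt4-AA and 28.2% in Spt5-AA. RPP0 had 1499 and 1683 counts in Spt4-AA against 2390 and 2615 in DMSO (log2 fold change -0.65, limma adjusted p = 0.0484). In the other table RPP0 had 728 and 625 in Spt5-AA against 1518 and 1670 in DMSO (-1.24, limma adjusted p = 2.19e-06). RPP0 in spt4Δ had 3319 and 4410 against 4998 and 4332 in WT cells (-0.28), with overlap. In the depleted cells the log2 ratio of the A to the B copy changed more in size in RPP2 than in RPP1, but this difference was not tested. The change was 0.52 against -0.13 in Spt4-AA and 0.65 against -0.47 in Spt5-AA. In Spt5-AA the standard errors, combined from the fits of the 2 copies, were 0.25 and 0.21. RPP2B had 516 and 797 in Spt4-AA against 1307 and 1234 in DMSO (-0.98, limma adjusted p = 0.0377), and 231 and 348 in Spt5-AA against 830 and 788 in DMSO (-1.51). RPP2A had 322 and 645 in Spt4-AA against 691 and 572 in DMSO (-0.46, limma adjusted p = 0.379), and 175 and 276 in Spt5-AA against 439 and 365 in DMSO (-0.86). RPP2A thus overlapped in Spt4-AA while RPP2B did not. RPP2A took 38.4% and 44.7% of the reads of the pair in Spt4-AA against 34.6% and 31.7% in DMSO, and 43.1% and 44.3% in Spt5-AA. RPP1A took 90.7% and 89.8% of the reads of its pair in Spt4-AA against 90.6% and 91.5% in DMSO, and 88.2% and 87.8% in Spt5-AA. For the P1 genes, RPP1A fell by 0.67 in Spt4-AA and by 1.26 in Spt5-AA, and RPP1B was at -0.54 in Spt4-AA (limma adjusted p = 0.0963) and fell by 0.79 in Spt5-AA.

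**Figure D4:**
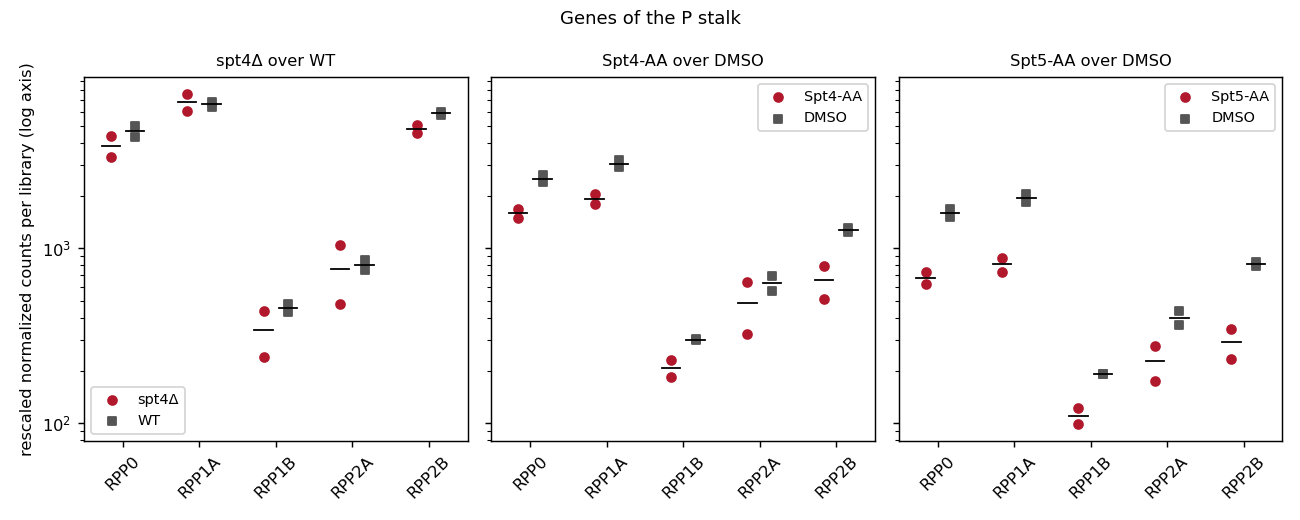
Rescaled normalized counts (log axis) of the 5 P stalk genes in each library, with the mean of each group as a black line. In Spt5-AA all 5 genes lie below DMSO without overlap, from RPP1B at 98.7 and 122 against 192 and 190 to RPP1A at 735 and 883 against 1842 and 2036, while in spt4Δ over WT 4 of the 5 overlap, and on the deposited scale RPP0 there is at 0.56.

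The A and B copies of each pair were compared by their ratio. A ratio of A to B within a library does not depend on the scaling. Where a change of log2(A/B) is given with ±, the error combines the standard errors of the 2 copies from their separate fits. It ignores the pairing of the copies within a library, and so is not the spread of the ratio itself. In Spt5-AA the ratio was separated between the groups in 27 of 34 pairs, beside 77.7% of all pairs of genes tested, so that the share among paralogs was close to that among any 2 genes. The counts were 17 of 34 pairs in Spt4-AA beside 57% of all pairs and 16 of 35 in spt4Δ beside 43.3%. With 2 libraries against 2, no single pair can go below p = 0.333 in the exact permutation test. The median change of log2(A/B), in absolute value, was 0.65 in Spt5-AA, 0.17 in Spt4-AA and 0.16 in spt4Δ, where the control libraries differed from each other by 0.11, 0.11 and 0.08. Both copies were called lower in 28 of 34 pairs in Spt5-AA and in 0 of 34 in Spt4-AA, where in 12 pairs 1 copy was called. Counted singly, 71 of 79 members were called lower in Spt5-AA and 15 of 79 in Spt4-AA, beside 28.2% and 4.25% of all genes.

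The widest change in Spt5-AA was in RPL9, a protein near the factor-binding site. RPL9A fell with 1423 and 1167 counts in Spt5-AA against 5751 and 6002 in DMSO (-2.19), while RPL9B had 300 and 428 against 311 and 401 (0.02). The A copy took 82.6% and 73.2% of the reads of the pair in Spt5-AA against 94.9% and 93.7% in DMSO, a change of -2.21 ± 0.23 (combined standard error) in log2(A/B). RPL43 went the other way. RPL43B had 1191 and 984 in Spt5-AA against 4160 and 5071 in DMSO (-2.08), and RPL43A 374 and 419 against 452 and 526 (-0.30), so that the A copy took 23.9% and 29.9% in Spt5-AA against 9.81% and 9.39% in DMSO (change 1.78 ± 0.207). In RPL4, the A copy had 146 and 168 in Spt5-AA against 274 and 302 in DMSO (-0.87) and the B copy lost more, for a change of 1.54 ± 0.32. The 60 coding bases with the most differences (R64), in capitals where the copies differ, show how well reads of each pair can be told apart:
RPL9A (chrVII:227757-227816, minus): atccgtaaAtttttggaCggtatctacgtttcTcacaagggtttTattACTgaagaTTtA
RPL9B (chrXIV:500194-500253, plus): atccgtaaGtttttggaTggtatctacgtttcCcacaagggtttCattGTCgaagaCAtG
RPL43A (chrXVI:654623-654682, plus): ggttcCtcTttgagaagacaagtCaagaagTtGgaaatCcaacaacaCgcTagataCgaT
RPL43B (chrX:608634-608693, plus): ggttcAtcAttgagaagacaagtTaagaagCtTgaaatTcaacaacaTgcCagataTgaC
RPL4A (chrII:301195-301254, plus): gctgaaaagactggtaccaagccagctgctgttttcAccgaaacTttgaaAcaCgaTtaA
RPL4B (chrIV:472882-472941, plus): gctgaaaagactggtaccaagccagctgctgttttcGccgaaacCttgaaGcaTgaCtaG
RPL9 differs at 36 of 576 coding bases and RPL43 at 29 of 279, whereas RPL4 differs at 12 of 1089, 6 of them in the last 60, and shares 72.7% of its 50-base stretches. The ratio of RPL4 is the less certain of the 3.

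In Spt4-AA and in spt4Δ the largest shifts were in other pairs. In RPL8 the A copy took 44.6% and 46.3% of the reads of the pair in Spt4-AA against 56.6% and 63.4% in DMSO (change -0.85 ± 0.226 in log2(A/B)), and 49.2% and 48.6% in spt4Δ against 58.6% and 63.2% in WT cells (-0.71 ± 0.36). In Spt5-AA the A copy of RPL8 took 76.03% and 75.3% against the same DMSO libraries (1.04 ± 0.202). RPL8 is 95.07% identical in coding sequence, with 6.93% of the 50-base stretches of the A copy shared. In RPL17 the A copy took 33.1% and 28.9% in Spt4-AA against 43.7% and 42.9% in DMSO (-0.77 ± 0.273). RPL22 had the widest shift in spt4Δ, where RPL22A had 7484 and 7396 against 8284 and 7395 in WT cells and RPL22B was lower, giving an A share of 95.9% and 96.3% against 93.8% and 93.2% (0.78 ± 0.344). In RPL15, the A share was 99.8% and 99.6% in spt4Δ against 99.8% in each WT library, and overlapped. In RPL41 the A copy took 49.8% and 49.2% in Spt5-AA against 63.2% and 64.5% in DMSO, with the limit given above on a pair that 1 base separates. Across pairs the log2 fold change of A and of B had a Pearson r of 0.30 in Spt5-AA, 0.12 in Spt4-AA (34 pairs each) and 0.09 in spt4Δ (35 pairs), as a description, since all pairs come from the same libraries.

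**Figure D5:**
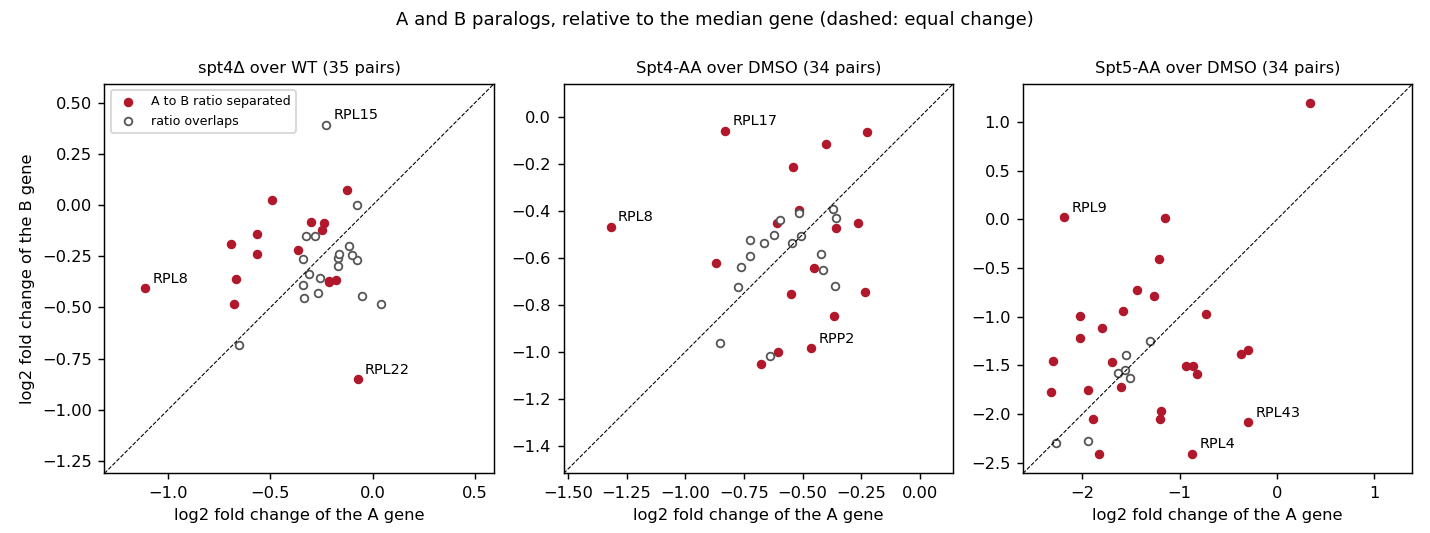
Log2 fold change of the B copy against that of the A copy of each pair, relative to the median gene. Red points are pairs whose A to B ratio did not overlap between the groups (16 of 35 in spt4Δ over WT, 17 of 34 in Spt4-AA and 27 of 34 in Spt5-AA over DMSO), open points overlapped, and the 3 pairs with the largest change of ratio are named beside a dashed line of equal change, along which another scaling moves all points.

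RPL13 provides the anchor protein in all anchor-away cells. RPL13B had 504 and 678 counts in Spt5-AA against 1468 and 1595 in DMSO (-1.39, limma adjusted p = 1.97e-06), and 924 and 1934 in Spt4-AA against 2311 and 2497 (-0.85, limma adjusted p = 0.137). RPL13A had 111 and 156 in Spt5-AA against 184 and 157 in DMSO (-0.37, limma adjusted p = 0.0999), and 142 and 301 in Spt4-AA against 290 and 246 (-0.37, limma adjusted p = 0.514). Neither copy was called in spt4Δ, at -0.31 for RPL13A and -0.34 for RPL13B. Within libraries, RPL13A took 18.0% and 18.7% of the reads of the pair in Spt5-AA, 13.3% and 13.5% in Spt4-AA, and 11.2% and 8.97% in DMSO. It took 23.3% and 28.6% in spt4Δ and 25.7% and 25.5% in WT cells, which have no anchor, and these strains differ in other alleles too. RPL3, a single-copy gene of a protein at the peptidyl transferase centre, had 3102 and 2619 in Spt5-AA against 7519 and 7815 in DMSO (-1.43, limma adjusted p = 1.9e-06). RPL3 had 5283 and 10117 in Spt4-AA against 11838 and 12234 in DMSO (-0.72, limma adjusted p = 0.169) and 53064 and 34747 in spt4Δ against 46866 and 44920 in WT cells (-0.10). The 2 Spt4-AA libraries differed from each other by more than the group means did.

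An intron was annotated in 53 of the 81 members. Members with an intron had a median log2 fold change of -1.56 in Spt5-AA (49 of 52 fell), and those without had -1.26 (22 of 27 fell and 1 rose), beside 28.2% of all genes lower and 25.9% higher. The medians were -0.54 and -0.65 in Spt4-AA and -0.27 and -0.26 in spt4Δ. Other genes with an intron lay at -0.24 in Spt5-AA, where 52 of 136 fell and 25 rose, and at 0.09 in Spt4-AA. The first intron started with GTATGT in 42 of the 53 members, with GTACGT in 5 and with another word in the rest. The junctions of named members (R64), 8 bases before the intron and 12 of it, with the first 6 intron bases in capitals, show both kinds:
RPL22A (chrXII:263198-263217, plus): ccccaaacGTATGAtacttt
RPL22B (chrVI:64909-64928, minus): ctccaaacGTACGTtaattt
RPL27B (chrIV:1401793-1401812, plus): taaagttgGTACGTaaattt
RPL20A (chrXIII:754208-754227, minus): cggaaaaaGTGAGTaaatac
RPL23B (chrV:396803-396822, plus): gaatttctGTATGTtaaaac
RPL26A (chrXII:819323-819342, plus): atcattagGTATGTgcacaa
RPL42B (chrVIII:382736-382755, minus): aataatggGTATGTggacga
Of the 5 lowest members in Spt5-AA, RPL23B, RPL26A and RPL42B have the common word, RPL20A has GTGAGT, and RPL4B has no intron. RPL30, whose protein is known to bind its own transcript and block its splicing, starts its intron with GTCAGT and had 577 and 764 counts in Spt5-AA against 2842 and 1970 in DMSO (-1.83, limma adjusted p = 5.89e-07).

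A degenerate pattern for the Rap1 site, searched on both strands in the 500 bases before the start codon, occurred at 33 of 81 members (40.7%), 44.6% of 40S genes and 5.86% of all 6002 protein-coding genes. A match is a stretch of sequence, not a shown site of binding, and lack of a match does not show lack of a site. Matches before 5 members that moved and before RPP1B, the P gene with a match, are shown with 10 bases on each side (R64, on the gene's strand), the match in capitals:
RPL22B (chrVI:65159-65188, minus): tccatgtcaaCACCCGTACAtattcagaga
RPL23B (chrV:396370-396399, plus): ctgttgtataCATCCGTACActtttgtgaa
RPL26A (chrXII:818990-819019, plus): acctttccaaCATCCGTACAtattgattat
RPL42B (chrVIII:383093-383122, minus): acatccgataCACCCATACAtcatgaaaat
RPL41B (chrIV:222127-222156, minus): acggttaccaCACCCGTACAcccttatctc
RPP1B (chrIV:229645-229674, plus): ttacacaaaaCATCCGTACAtcagaaggat
These matches start between positions -389 (RPL23B) and -246 (RPL22B) from the start codon, and both RPL41B, which rose in Spt5-AA, and RPL23B, the lowest there, have one. Members with a match had a median of -1.46 in Spt5-AA and those without -1.49, with -0.59 and -0.54 in Spt4-AA and -0.29 and -0.25 in spt4Δ. These medians compare genes by the pattern only, and control by Rap1 was not tested. A degenerate pattern for Abf1 and the word GACGCA for Fhl1, on both strands in the same window, occurred at 14.8% and 18.5% of members, against 22.7% and 10.9% of all genes. An Abf1 match can overlap a Rap1 match, as before RPL26A.

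Across members, length, base composition and level tracked the change only loosely. In Spt5-AA the log2 fold change had a Spearman rho of -0.02 with coding length, 0.14 with GC content and -0.30 with level per kb in DMSO over 79 members (Pearson r -0.10, 0.01 and 0.38). The sign of the last differs between the measures. RPL41A, RPL41B and RPL10 are both abundant per kb and at the top of the fold changes. In Spt4-AA the values of rho were -0.22, -0.27 and -0.16, and in spt4Δ over 81 members -0.09, 0.12 and 0.42. These are descriptions over genes of the same libraries.

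The 40S ribosomal protein genes moved much like the 60S genes. Their median was -1.49 in Spt5-AA, where 52 of 55 fell, -0.48 in Spt4-AA, where 9 of 55 fell, and -0.21 in spt4Δ, where 0 of 55 were called, beside the same shares of all genes as for the P genes. The reads on 60S genes per read on 40S genes were 1.57 and 1.41 in Spt5-AA against 1.10 in each DMSO library, and without RPL10, RPL41A and RPL41B 0.749 and 0.766 against 0.880 and 0.870. In Spt4-AA the full ratio was 1.10 and 1.09.

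Most factors that act on the 60S proteins fell in Spt5-AA, and fewer passed the test in Spt4-AA. Of 18 chaperones and maturation factors, 15 fell and 0 rose in Spt5-AA (median -1.24), beside 28.2% of all genes lower. In Spt4-AA 5 of 18 fell (-0.61), beside 4.25% of all genes, and in spt4Δ 0 were called (-0.28), beside 1.02%. BCP1, the chaperone of Rpl23, fell by 1.83 in Spt5-AA, and RRB1, the chaperone of Rpl3, fell by 1.24. MRT4, which holds the place of P0 in nuclear particles, fell by 1.50 in Spt5-AA and by 0.74 in Spt4-AA. SQT1, the chaperone of Rpl10, had 689 and 591 in Spt5-AA against 771 and 835 in DMSO (-0.33, limma adjusted p = 0.0519), and ACL4, that of Rpl4, was at -0.25 there (limma adjusted p = 0.144). SYO1, which imports Rpl5 with Rpl11, was the lowest of the list in Spt4-AA and in spt4Δ, at 110 and 154 in Spt4-AA against 365 and 256 in DMSO (-1.23, limma adjusted p = 0.0269) and 390 and 385 in spt4Δ against 899 and 721 in WT cells (-1.05, limma adjusted p = 0.0608). Among factors of the promoters, FHL1, SFP1, HMO1 and ABF1 fell in Spt5-AA, between -0.99 and -0.57, while RAP1 had 81.7 and 94.7 in Spt5-AA against 102 and 101 in DMSO (-0.20, limma adjusted p = 0.352). In Spt4-AA 0 of 5 of them were called, and in spt4Δ 0 of 6, beside 8.99% and 1.02% of all genes. CRF1, analysed only in spt4Δ and WT cells, was the 1 of these 6 above 0. It had 63.0 and 51.4 in spt4Δ against 34.8 and 17.3 in WT cells (1.18, limma adjusted p = 0.269). IFH1, also on this list of 7, was not analysed in any comparison.

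Genes of the general stress response, such as that of the membrane protein Hsp12, rose in Spt5-AA and mostly in Spt4-AA, and fewer passed in spt4Δ. Of the list, 7 genes were analysed in the anchor-away tables and 15 in the table of spt4Δ and WT, so that shares are comparable within a table or between the anchor-away tables only. The 7 took 0.979% and 0.972% of all reads in Spt5-AA and 0.135% and 0.148% in Spt4-AA, against 0.0512% and 0.0538% in DMSO. The 15 took 0.161% and 0.210% in spt4Δ against 0.105% and 0.116% in WT cells. By limma 7 of 7 tested rose in Spt5-AA, 6 of 7 in Spt4-AA and 4 of 15 in spt4Δ, beside 25.9%, 4.74% and 0.663% of all genes called higher. The part of such a response in the levels of the 60S genes was not tested.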

How the data were processed

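The 10 RNA-seq libraries of 5 groups were used. The study's libraries from other assays (NET-seq, ChIP-seq and related methods) were not used here. Total RNA had been depleted of rRNA and made into strand-specific libraries, with S. pombe cells added as a spike. The authors deposited normalized counts, a signal in which the reads per gene of a library are divided by 1 factor per library, in a separate table for each comparison. The submitters' processing notes name Trim Galore, TopHat, DESeq2 and the builds sacCer3, R64 and ASM294v2. The counter, the annotation and the treatment of reads that fit several places are not given in the sources used here. The authors' own comparisons (fold changes and p-values) were deposited too, and none was used.

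Tables use systematic names, of which 5317, 4716 and 4716 were matched to symbols in the R64 annotation. Reads were recovered by dividing by the value of 1 read in each library, and 100% of them were whole within 0.01. Each library was rescaled by its median ratio to the geometric mean of its table, because members were read relative to the median gene. The main test was limma 3.58.1 in R 4.3.3, two-sided, with the variance trend, on log2(rescaled count + 1), which understates changes of low genes. Genes averaging 10 or more normalized counts were kept, all members listed among them. Benjamini-Hochberg adjustment ran over all genes tested, and an adjusted p under 0.05 was a call. Intervals cover counting error only, since reads without molecular identifiers are not independent molecules. Alternatives were the deposited scaling, equal totals, pseudocounts of 0.1 and 10, no filter or a mean of 100, edgeR 4.0.16 and DESeq2 1.42.0 on the recovered reads, a replicate block for spt4Δ and WT, and leaving out each library. The test was checked on simulated data.

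Members and lists were chosen with earlier results of these data known. Genes named by rule were the P genes, RPL13A, RPL13B, RPL3, the 5 highest and 5 lowest members per comparison, the 3 pairs with the largest change of A to B ratio, the highest and lowest level per kb, and SPT4 and FPR1 as checks. Other genes were named after their values were seen. Sequences, positions and introns are from RefSeq's R64 assembly, read with Python 3.11.15 and Biopython 1.88. Both depletions were compared with the same DMSO libraries.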

Additional observations from a re-analysis of the deposited data

Results flagged for a closer look

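RPL41A is named because its libraries moved to opposite sides of the same DMSO libraries after the 2 depletions. It was lower in both Spt4-AA libraries (log2 fold change -0.22) and higher in both Spt5-AA libraries (0.34), relative to the median gene. The difference was not tested, the comparisons share their DMSO libraries, neither value passed limma's threshold, and on the deposited scale RPL41A was lower in both.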

How the results depend on the processing

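On the deposited scaling the members' median was 0.57 in spt4Δ over WT, -0.84 in Spt4-AA and -3.33 in Spt5-AA over DMSO. There 63 members were called in Spt4-AA and 79 in Spt5-AA, beside 21.8% and 93.1% of all genes. With equal totals the medians in Spt4-AA and Spt5-AA were -0.41 and -1.36. DESeq2 called 1 member in spt4Δ and 29 in Spt4-AA, beside 2.04% and 9.99% of all genes. Leaving out 1 library gave 0 to 39 called members in spt4Δ (medians -0.34 to -0.26), 0 to 74 in Spt4-AA (-0.77 to -0.46) and 70 to 76 in Spt5-AA (-1.48 to -1.39). The counts of pairs with separated ratios stayed at 16 and 27 in spt4Δ and Spt5-AA and were 17 to 18 in Spt4-AA, and no value could be had with 1 library left out. A replicate block of spt4Δ and WT called 0 members, beside 1.72% of all genes, with deviations of equal numbers correlated at -0.26. A block with crossed numbers, chosen after seeing the data, called 2 members, beside 5.035% of all genes. No paired analysis was possible because the labels number no DMSO libraries.

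Some named genes changed sign. On the deposited scaling in spt4Δ the log2 fold changes were RPL13A 0.53, RPL13B 0.51, RPL15A 0.62, RPL18B 0.84, RPL22A 0.77, RPL3 0.75, RPL34A 0.16, RPL41A 0.72, RPL6B 0.16, RPL7A 0.15, RPL8B 0.44, RPP0 0.56, RPP1B 0.36, RPP2A 0.67 and RPP2B 0.54. In Spt5-AA they were RPL41A -1.52, RPL41B -0.67, RPL7B -1.83 and RPL9B -1.84. With equal totals RPL18B was at 0.026 in spt4Δ, RPL17B at 0.075, RPL41B at 0.070 and RPL7B at 0.019 in Spt4-AA, and RPL10 at 0.10 in Spt5-AA. RPL18B in spt4Δ was at 0.0062 by edgeR and 0.0042 by DESeq2, and RPL10 in Spt5-AA at 0.011 and 0.020. Without 1 library, spt4Δ gave RPL13A -0.71 to 0.092, RPL15A -0.53 to 0.087, RPL15B -0.018 to 0.81, RPL17B -0.24 to 0.30, RPL18B -0.15 to 0.16, RPL22A -0.15 to 0.0051, RPL3 -0.38 to 0.20, RPL41A -0.43 to 0.19, RPL41B -0.36 to 0.51, RPP1A -0.10 to 0.19 and RPP2A -0.75 to 0.41. Spt4-AA gave RPL13A -0.92 to 0.17, RPL17B -0.34 to 0.22, RPL41B -0.25 to 0.11, RPL7B -0.31 to 0.072 and RPP2A -0.97 to 0.037. Spt5-AA gave RPL10 -0.25 to 0.21, RPL7B -0.017 to 0.030 and RPL9B -0.24 to 0.28. The causes were not tested. Of the other values of named genes, 659 kept direction and side of the threshold, 45 came to pass it and 16 no longer did. Depth limited RPL4B most, with as few as 7 reads in a library.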
